A study of Mus musculus with 15 samples.

Results

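The mitochondrial ribosomal proteins were taken as every gene whose symbol starts with Mrpl or Mrps. The gene tables hold 76 such genes of 22924 usable genes, 47 Mrpl and 29 Mrps, and no symbol had to be left out as a pseudogene. Mrpl symbols name proteins of the large subunit and Mrps symbols mostly proteins of the small subunit, with Mrps18a, Mrps30 and Mrps36 as exceptions. All 76 had a mean of at least 1 FPKM (fragments scaled to transcript length and library size), the minimum for testing, which 11253 genes passed. The 15 libraries are bulk poly-A RNA-seq of cells sorted from mouse islets. All cells carried a red fluorescent reporter (RFP) switched on by cre, which marks the cells in which cre has acted and their descendants, and were split by aldefluor, a fluorescent substrate of aldehyde dehydrogenase, into ALDH- and ALDH+ cells. The study used ALDH activity to separate failing from healthy beta cells.

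There were 3 control ALDH-, 2 control ALDH+, 5 Foxo KO ALDH- and 5 Foxo KO ALDH+ libraries. Foxo KO mice carried floxed Foxo1, Foxo3 and Foxo4, which are removed only in cells where cre acts. The labels call the control mice heterozygous for all 3 genes, whereas the methods describe wild-type Foxo alleles in the RIP-Cre controls. Cre was driven by RIP-Cre, which acts in beta cells, in 9 libraries (control ALDH- replicates 1 and 2, control ALDH+ replicate 1, and Foxo KO replicates 1 to 3). It was driven by Pdx-Cre, which acts from pancreatic precursors on, in the 6 others. All mice had a mixed 129J and C57BL/6 background. The methods give an age of 6 months for the RIP-Cre mice, whose islets were taken from many animals per genotype, and the age of the Pdx-Cre mice is not given in the sources used here. Nothing says that replicates came from separate pools of animals, so p-values measure the spread between these libraries, which may be technical.

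Mitochondria keep their own ribosome, which translates the few proteins encoded by mitochondrial DNA, all of them parts of the respiratory chain and ATP synthase. Its protein genes lie in the nucleus. Some descend from bacterial ribosomal proteins and others exist only in mitochondria. Beta cells couple glucose sensing to insulin release through mitochondrial ATP production, so this ribosome sits upstream of the machinery that drives secretion.

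The labels were checked first. Foxo1 was at 12.0 to 20.1 FPKM in the 5 control libraries and at 0.0925 to 4.24 in the 10 Foxo KO libraries. Foxo3 ranged over 12.7 to 23.0 and 9.78 to 30.6 FPKM, and gene-level values do not test the loss of single exons. Foxo4 did not exceed 1.34 FPKM anywhere. Aldh1a3 was at 0.49 to 4.09 FPKM in ALDH- and 22.1 to 76.9 in ALDH+ libraries. The summed level of 8 beta cell markers was 84100 to 128000 FPKM in ALDH- and 35600 to 99700 in ALDH+ libraries. Most of that sum was Iapp, at 82000 to 125000 and 33200 to 97400 FPKM, and over the 8 markers the median log2 difference was 0.02, with 4 negative, 4 positive and 0 called (limma), and 0 at an unadjusted p under 0.05. Endothelial and mesenchymal markers summed to at most 1.48 FPKM. Libraries held 7479367 to 10043802 summed fragments, and 14 or more stood behind every value of a member.

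Control ALDH+ replicate 1 and Foxo KO ALDH+ replicate 3, both RIP-Cre, stood apart from the other 13 by a rising length trend. Their levels relative to the mean of all libraries rose with transcript length (Spearman's rho across genes 0.34 and 0.32, against -0.35 to 0.12 in the others). Counts of the comparisons that include them are given with and without them. They were picked after the data were seen, and for a rise only. Control ALDH- replicate 3, a Pdx-Cre library, fell with length about as steeply (rho -0.35) and was kept. Both picked libraries are ALDH+, so leaving them out is not neutral between ALDH+ and ALDH- cells.

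The members spanned a 59.4-fold range of level. Mean FPKM over the 15 libraries ran from 3.32 to 120 among Mrpl genes, with a median of 17.8, and from 4.04 to 197 among Mrps genes, with a median of 18.5. The highest was Mrps21, the counterpart of a bacterial small-subunit protein, followed in the small subunit by Mrps33 (82.1 FPKM), which exists only in mitochondria, and Mrps28 (58.1). The large subunit was led by Mrpl33 (120 FPKM) and Mrpl30 (113), both of bacterial descent, and Mrpl52 (82.3), which exists only in mitochondria. At the other end were Mrpl45 (3.32), which helps tether the ribosome to the inner membrane, Mrpl19 (4.74) and Mrpl15 (5.61), and Mrps25 (4.04), Mrps27 (4.63) and Mrps9 (7.55). In all, 13 members lay above 50 FPKM and 13 below 10. Within each subunit the ranges over libraries of any neighbours in this order overlapped, as the plot of levels shows. The ends were clear of each other, with Mrps21 at 85.0 FPKM or more and Mrpl45 at 4.55 or less in every library.

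**Figure D1:**
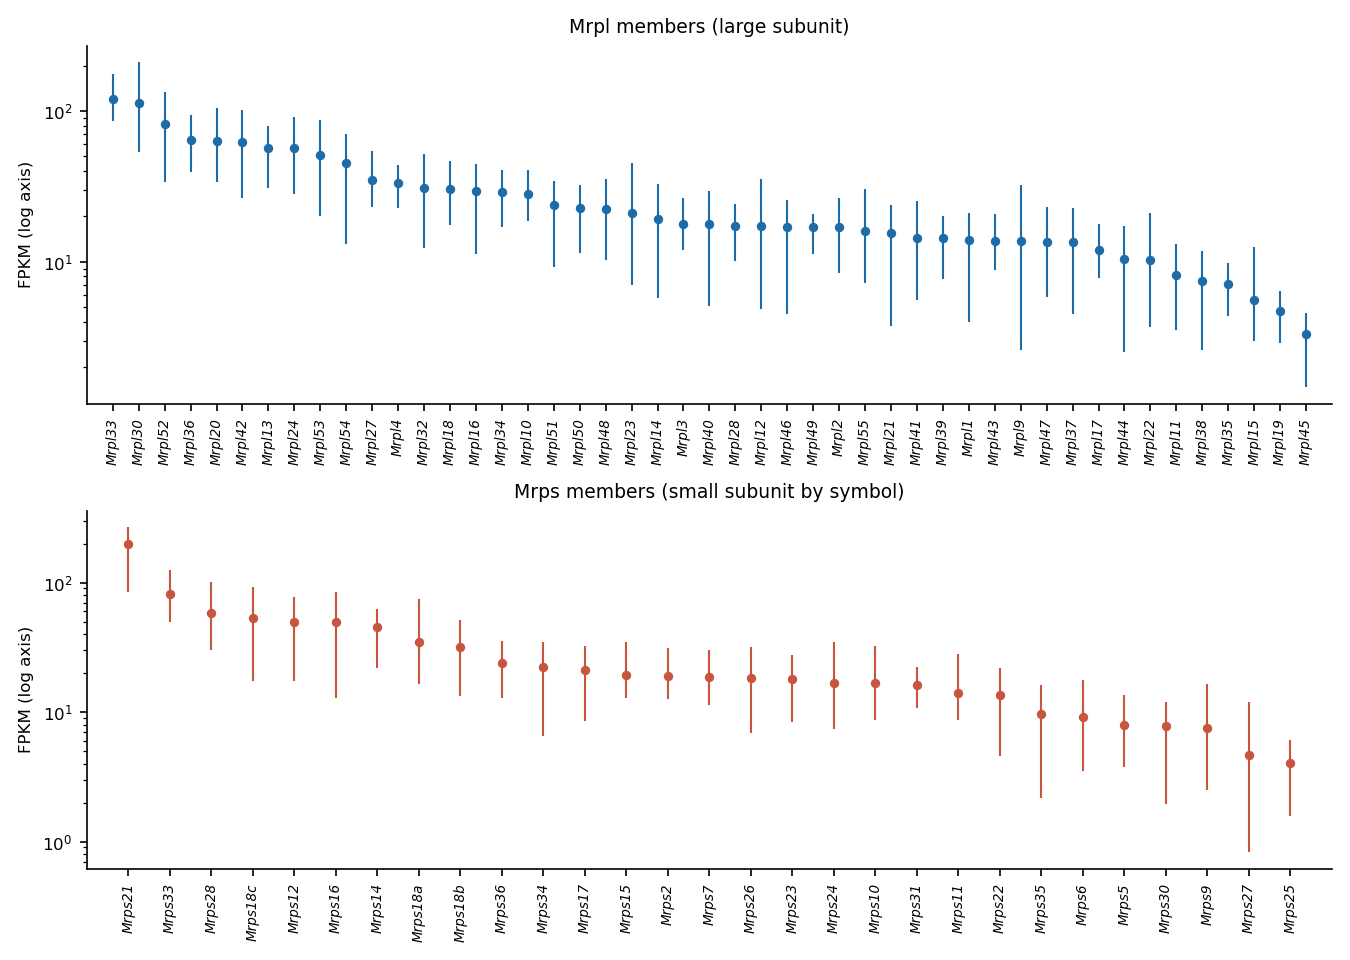
Level of each Mrpl gene (top) and Mrps gene (bottom) in FPKM on a log axis, with the mean of 15 libraries as a point and the lowest to highest library as a line. Mean levels fall gradually from 120 to 3.32 FPKM in the large and from 197 to 4.04 in the small subunit, and neighbours overlap.

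The median member was lower in ALDH+ than in ALDH- libraries. Relative to each gene's mean over the 15 libraries, the median member lay at 0.15, 0.16 and 0.28 on the log2 scale in the control ALDH- libraries and at 0.08 to 0.38 in the Foxo KO ALDH- libraries. It lay at -0.54 and -0.15 in the control ALDH+ libraries and at -0.40 to 0.04 in the Foxo KO ALDH+ libraries. No ALDH+ library reached the lowest ALDH- library. The lowest 2 were the libraries named above as standing apart, at -0.54 and -0.40, and the other 5 ALDH+ libraries lay at -0.15 to 0.04. In deposited units the members summed to 2307 to 2860 FPKM in ALDH- and 1439 to 2328 in ALDH+ libraries. The Mrpl median lay at 0.13 to 0.34 in ALDH- against -0.57 to 0.04 in ALDH+ libraries. The Mrps median lay at -0.04 to 0.44 against -0.39 to 0.05, and these ranges overlapped. In bulk RNA, fewer cells with a transcript and less of it per cell cannot be told apart.

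**Figure D2:**
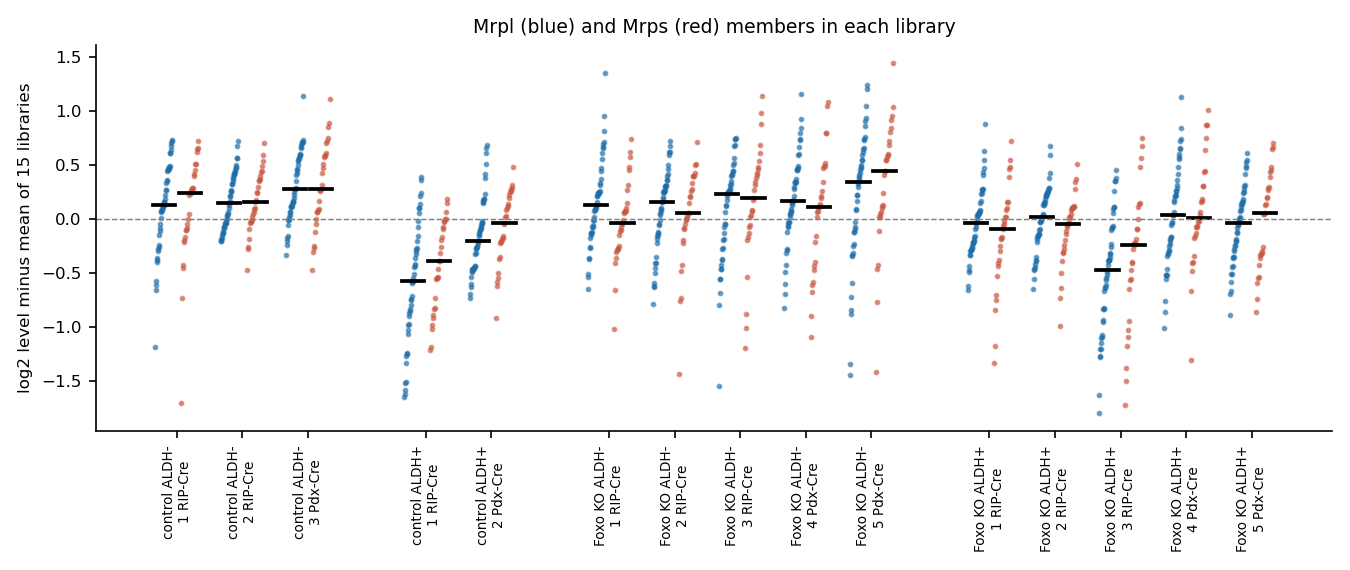
Log2 level of every member in each of the 15 libraries, minus that gene's mean over all libraries, with Mrpl genes in blue, Mrps genes in red and black bars at the medians. The medians of the ALDH+ libraries lie below those of the ALDH- libraries for Mrpl genes, lowest in control ALDH+ replicate 1 (-0.57) and Foxo KO ALDH+ replicate 3 (-0.48).

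The main comparison set ALDH+ against ALDH- cells, averaged over genotypes with the cre driver in the model. Of 76 members, 15 were lower (19.7%) and 0 were higher at an adjusted p under 0.05 (limma with Benjamini-Hochberg adjustment over 11253 genes). Over all genes tested, 3.77% were lower and 2.22% higher. The median log2 difference was -0.40 for members and -0.02 for all genes, and 68 of 76 members had a negative value against 52.3% of all genes. At an unadjusted p under 0.05 there were 36 members, all lower, beside 20.8% of all genes in either direction (1339 lower and 1000 higher). The count rested on single libraries and on a fit without pairs. Treating same-numbered libraries of a genotype as blocks left 0 of the 15, and blocks within cre driver left 3. Without control ALDH+ replicate 1 none of the 76 members passed, with 24 at an unadjusted p under 0.05, although the median difference stayed at -0.37 and 65 differences stayed negative. Without both libraries that stand apart, again 0 passed, 21 had an unadjusted p under 0.05, and the median was -0.35. Leaving out control ALDH- replicate 1, 2 or 3 left 6, 5 and 8 members lower, Foxo KO ALDH- replicate 5 left 8, and Foxo KO ALDH+ replicate 4 or 5 left 9. All 15 kept a negative difference under every alternative tried. They were picked as lower in these same libraries, which the alternatives reuse, so the kept sign is not independent evidence. The shares of all genes that passed in these smaller fits are not given here. From the member counts alone, a loss of calls particular to the members cannot be told from a loss across all genes.

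**Figure D3:**
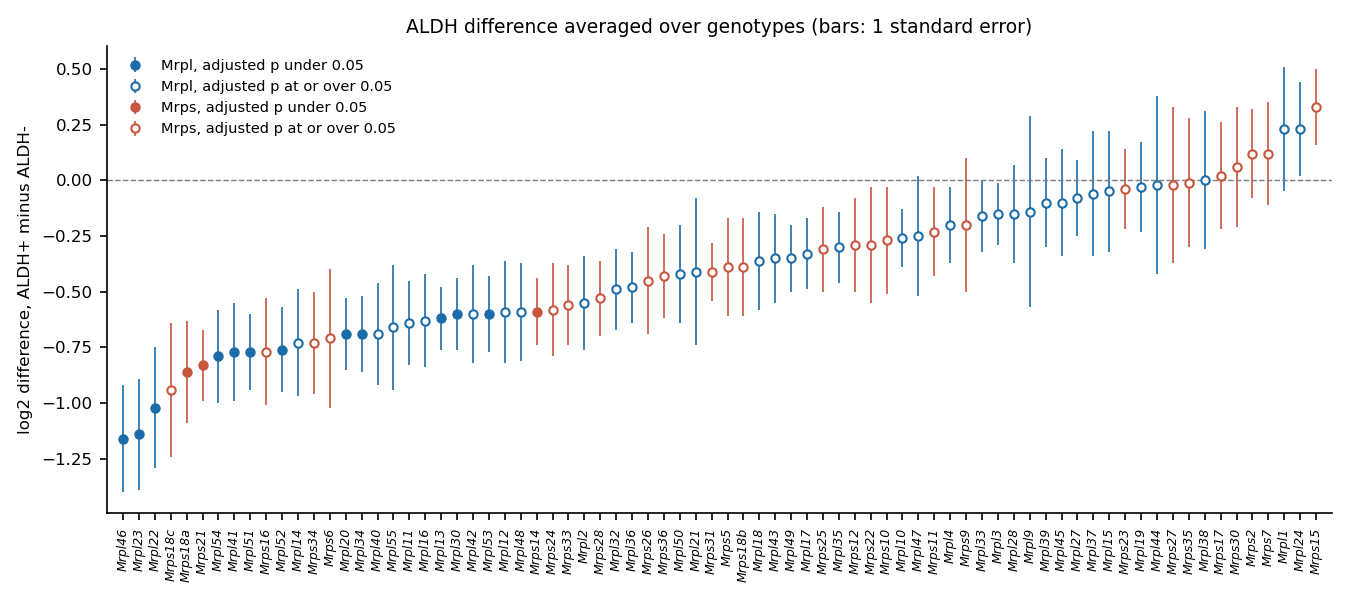
Log2 difference between ALDH+ and ALDH- cells for each of the 76 members, ordered from lowest to highest, with bars of 1 standard error. Filled symbols mark the 15 members with an adjusted p under 0.05, all of them negative, from Mrpl46 (-1.16) to Mrps14 (-0.59), and the highest open symbol is Mrps15 (0.33).

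Mrpl symbols supplied 12 of the 15 lower members (12 of 47, 25.5%) and Mrps symbols supplied 3 (3 of 29, 10.3%), of which Mrps18a is a large-subunit protein. That difference in share was not tested. Of the large-subunit proteins with bacterial counterparts, 6 of 30 were lower: Mrpl23 and Mrpl22, which line the tunnel through which new proteins leave, and Mrpl13, Mrpl20, Mrpl34 and Mrpl30. Of those that exist only in mitochondria, 6 of 17 were lower: Mrpl46, Mrpl51, Mrpl52, Mrpl54, Mrpl53 and Mrpl41. In the small subunit 2 of 16 proteins with bacterial counterparts were lower, Mrps21 and Mrps14, and 0 of 10 that exist only in mitochondria, of which 3 had an unadjusted p under 0.05. Medians were -0.39 and -0.59 for the large-subunit classes and -0.34 and -0.35 for the small-subunit classes. Mrpl46, Mrpl51 and Mrps14 are also in a list the study drew from these samples, so their direction is not independent evidence.

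Mrps21 had the smallest p. It was at 228, 218 and 246 FPKM in control ALDH- cells and at 205, 220, 270, 250 and 265 in Foxo KO ALDH- cells, replicates 1 to 5. It was at 85.0 and 163 FPKM in control ALDH+ cells and at 175, 187, 90, 166 and 192 in Foxo KO ALDH+ cells. All 7 ALDH+ libraries lay below all 8 ALDH- libraries, which held for no other member and for 0.293% of all genes tested, and no member had the reverse order (0.418% of genes). The log2 difference was -0.83 ± 0.16 (SE), or 0.563-fold, with an adjusted p of 0.00878 (limma). Without the 2 libraries that stand apart it was -0.51 ± 0.13, with an adjusted p of 0.14 (limma).

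Mrpl46, a large-subunit protein without a bacterial counterpart, showed the largest decrease. It was at 25.6, 22.7 and 19.1 FPKM in control ALDH- cells and at 25.5, 23.7, 21.4, 17 and 20.9 in Foxo KO ALDH- cells. It was at 4.5 and 12.2 FPKM in control ALDH+ cells and at 12.3, 11.7, 8.15, 23.2 and 7.73 in Foxo KO ALDH+ cells. Foxo KO ALDH+ replicate 4 was inside the ALDH- range and the other 6 ALDH+ libraries lay below it. The difference was -1.16 ± 0.24 on the log2 scale, with an adjusted p of 0.011 (limma). With RIP-Cre libraries alone it was -1.62 ± 0.19 (adjusted p 0.0134, limma), and with Pdx-Cre libraries alone -0.58 ± 0.45 (adjusted p 0.889, limma). Without the 2 libraries that stand apart it was -0.72 ± 0.26 (adjusted p 0.277, limma).

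Mrpl51, another mitochondria-specific large-subunit protein, was at 26.4, 31.2 and 31.9 FPKM in control ALDH- and at 9.27 and 16.1 in control ALDH+ cells. In Foxo KO cells it was at 17.7, 23.3, 32.0, 26.4 and 34.1 FPKM in ALDH- and 23.4, 25.2, 17.5, 17.9 and 23.5 in ALDH+ libraries. The groups were apart in controls and overlapped in Foxo KO cells. The share of all genes apart in such small control groups was not computed. Averaged over genotypes it fell by 0.77 on the log2 scale (SE 0.17, adjusted p 0.0149 by limma), and without the 2 libraries that stand apart by 0.57 (SE 0.21, adjusted p 0.281 by limma).

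The others of the 8 members with the smallest p had overlapping ranges. Mrpl23 ran from 13.5 to 45.2 FPKM in ALDH- (median 26.8, n = 8) and from 7.06 to 21.7 in ALDH+ libraries (median 11.9, n = 7), a log2 difference of -1.14 ± 0.25. Mrpl13 had medians of 70.3 and 46.6 FPKM (-0.62 ± 0.14) and Mrpl20, a protein of bacterial descent, 72.4 and 49.3 (-0.69 ± 0.16). Mrpl34 had 36.2 and 20 (-0.69 ± 0.17) and Mrpl52 97.9 and 74.9 (-0.76 ± 0.19). Adjusted p-values of these 5 were 0.0149 to 0.0277 (limma). Without the 2 libraries that stand apart their differences were -0.88 (Mrpl23) to -0.47 (Mrpl52), with adjusted p of 0.199 to 0.38 (limma). Mrps14, named for its place in the study's list, had medians of 51.5 and 42.8 FPKM and fell by 0.59 (SE 0.15, adjusted p 0.0334 by limma), and without those 2 libraries by 0.37 (adjusted p 0.411 by limma).

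No member was higher in ALDH+ cells by the test. The 3 with the smallest p on that side were Mrps15 (0.33 ± 0.17), which binds ribosomal RNA early in assembly of the small subunit, Mrpl24 (0.23 ± 0.21) and Mrpl1 (0.23 ± 0.28), the protein of a mobile stalk. Their adjusted p-values were 0.3, 0.592 and 0.703 (limma). Mrps15 ran from 12.9 to 23.6 FPKM in ALDH- and from 14.5 to 34.8 in ALDH+ libraries, which overlap. The locus of Mrpl24 overlaps Rrnad1 by 833 bases in the tables' mm9 coordinates. Whether counting used strand is not given in the sources used here, so reads there cannot be assigned between the genes, and the same holds for Mrpl41 with Wdr85 (1002 bases) and Mrpl53 with Ccdc142 (14 bases) among the lower members.

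Of the Mrps genes whose proteins sit elsewhere than their symbols say, Mrps18a, a large-subunit protein in spite of its name, was lower (-0.86 ± 0.23, adjusted p 0.0353 by limma), and without the 2 libraries that stand apart its difference was -0.60 (adjusted p 0.416, limma). It had a median of 42.6 FPKM in ALDH- and 23.9 in ALDH+ libraries. Mrps30, also in the large subunit, had a difference of 0.06 ± 0.27 and changed sign under 6 alternatives. Mrps36, now known as a part of the 2-oxoglutarate dehydrogenase complex, had -0.43 ± 0.19. Neither passed the test (adjusted p 0.925 and 0.21, limma).

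Transcript length moved with these differences. The median longest annotated transcript was 1284 bases for members and 3062 for genes tested, and 53 of 76 members were under 2000 bases, against 27.1% of the tested genes with a length. Across all tested genes the ALDH difference rose with length (Spearman's rho 0.39), as it did across the 76 members (0.5), and genes are not independent replicates. Of the 15 lower members, 13 were under 2000 bases, where 10.8% of all genes were lower.

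In each of the 7 length classes the median member lay below the median gene, which is a description with no test. Under 750 bases, 7 of 11 members were lower, against 26.3% of 396 genes, with medians of -0.73 and -0.43. From 750 to 1000 bases it was 4 of 14 against 18.7%, with medians of -0.63 and -0.39, and from 1000 to 1500 bases 2 of 22 against 8.93% (-0.32 and -0.27). From 3000 to 5000 bases it was 1 of 13, Mrpl51 (3427 bases), against 0.731%, with medians of -0.30 and 0.02. With a length trend removed from each library, 3 members stayed lower: Mrps21 (-0.53, adjusted p 0.0226), Mrpl46 (-0.91, 0.0462) and Mrpl51 (-0.79, 0.0221, all limma), and the median was -0.25. The share of all genes lower in that fit, and their median, are not given here. These 3 calls can therefore not be set against a background. Cytosolic ribosomal protein genes, which are short as well, had a median difference of -0.78 in the unadjusted fit, with 65 of 77 lower, a list chosen after its values were seen.

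**Figure D4:**
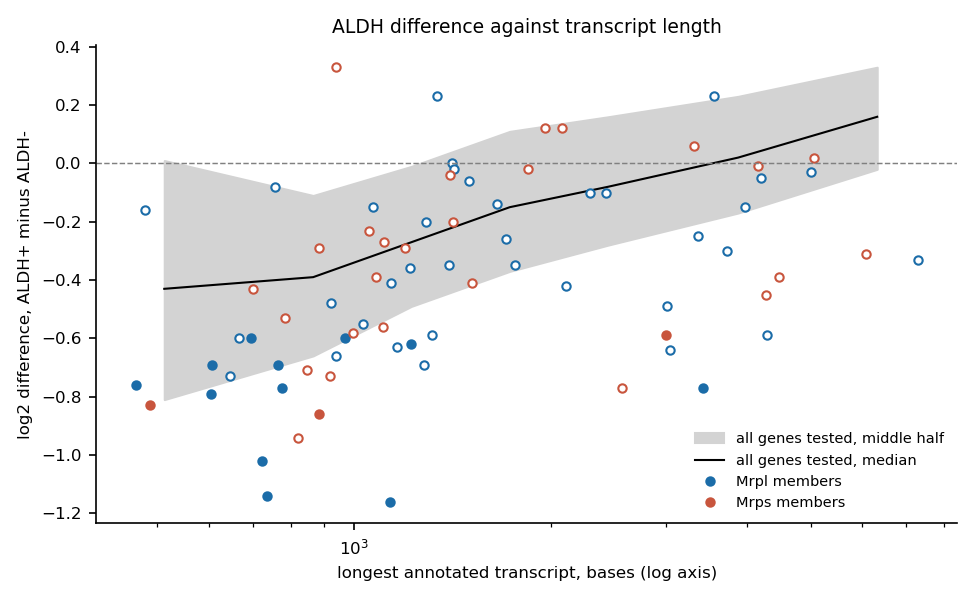
Log2 difference between ALDH+ and ALDH- cells against the length of the longest annotated transcript in bases (log axis), for 76 members (blue Mrpl, red Mrps, filled where adjusted p was under 0.05). The black line and grey band give the median and interquartile range of all genes tested by length class, rising from -0.43 to 0.16, and 55 of 76 members lie below the median of their class.

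Nuclear-retained RNAs moved the other way. All 5 of 5 such long noncoding RNAs were higher in ALDH+ cells (median log2 difference 2.15), where 2.22% of all genes were higher. They had a summed level of 273 to 1620 FPKM in ALDH- and 2060 to 4940 in ALDH+ libraries. The study lists Malat1 and other long noncoding RNAs as increased in these same samples, so this direction is not independent evidence. Malat1 alone was at 4370 and 4030 FPKM in the 2 libraries that stand apart and at 4050 in control ALDH+ replicate 2. The 4 markers of alpha cells summed to 1040 to 36600 FPKM in ALDH- and 476 to 6080 in ALDH+ libraries, and those of delta and PP cells to 1380 to 31800 and 878 to 7420. Acinar markers, 7 of 8 of them listed, summed to 0.143 to 378 FPKM in ALDH- and 0.0576 to 1440 in ALDH+ libraries. Control ALDH+ replicate 2 held the acinar sum of 1440 FPKM, and Cpa1 had its highest value there (50.3 FPKM). It is the control ALDH+ library that remains where replicate 1 is left out. The part of these RNAs and markers in the differences of the members was not tested.

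Each genotype was then taken alone, with the same libraries as in the average. In control cells 1 of 76 members was lower, Mrpl51 (-1.28 ± 0.28, 0.411-fold, adjusted p 0.0408 by limma), and 0 were higher, against 0.755% and 0.462% of all genes. The median was -0.56 for members and -0.03 for all genes, and 66 of 76 were negative. Mrpl20 (-1.09), Mrps21 (-1.05), Mrpl23 (-1.61) and Mrpl46 (-1.51) had adjusted p of 0.058 to 0.0755 (limma). On the higher side the smallest p were those of Mrps2 (0.24), Mrps15 (0.14), Mrps35 (0.23) and Mrpl24 (0.16), with adjusted p of 0.811 to 0.902 (limma). The control ALDH+ group has 2 libraries, and without replicate 1 no member was called, with 8 at an unadjusted p under 0.05 and a median of -0.44. That leaves 1 control ALDH+ library, which is assumed to vary like the other groups. No member was called without control ALDH- replicate 1, 2 or 3, Foxo KO ALDH- replicate 1 or Foxo KO ALDH+ replicate 5 either, and 2 to 4 were called without Foxo KO ALDH- replicate 3, 4 or 5, control ALDH+ replicate 2 or Foxo KO ALDH+ replicate 3. Without both libraries that stand apart 0 were called, with 11 at an unadjusted p under 0.05 and a median of -0.40.

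In Foxo KO cells, with 5 libraries on each side, 0 of 76 members passed in either direction (limma), where 0.0% of all genes were lower and 0.0178% higher. At an unadjusted p under 0.05 there were 20 lower and 1 higher members, beside 13.1% of all genes. The median difference was -0.26 and 60 of 76 were negative, and without the 2 libraries that stand apart the median was -0.23, with 15 at an unadjusted p under 0.05. The lower members with the smallest p were Mrps24 (-0.97 ± 0.24), the counterpart of a protein at the mRNA entry of the bacterial ribosome, Mrps21 (-0.61 ± 0.18), Mrpl34 (-0.58 ± 0.19) and Mrpl46 (-0.82 ± 0.27), with adjusted p of 0.155 to 0.23 (limma). Mrps24 was at 7.41 to 15.9 FPKM in Foxo KO ALDH+ and 16.5 to 34.8 in Foxo KO ALDH- libraries. These ranges did not overlap, and the share of all genes apart between these groups was not computed. On the higher side they were Mrps15 (0.52), Mrps23 (0.40), Mrps17 (0.45) and Mrpl15 (0.44).

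**Figure D5:**
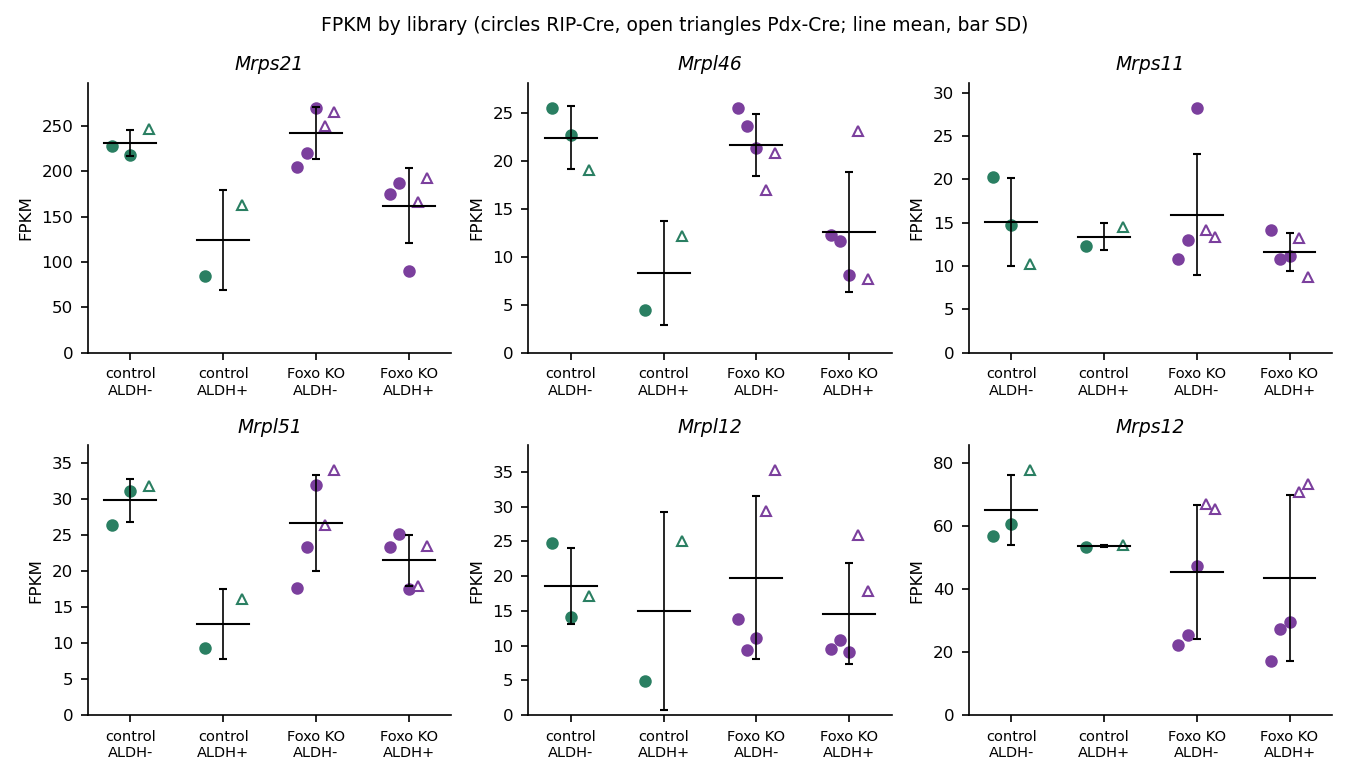
FPKM of 6 members in each library by group, with circles for RIP-Cre, open triangles for Pdx-Cre, a line at the mean and a bar of 1 SD. Mrps21, Mrpl46 and Mrpl51 are lower in control ALDH+ than in control ALDH- cells, Mrps11 overlaps throughout, and the Pdx-Cre libraries of Mrpl12 and Mrps12 lie at or near the top of the Foxo KO groups.

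The difference between genotypes in the ALDH effect did not pass for any member. The genotype by ALDH interaction, which is the Foxo KO minus the control difference, had 0 members past the threshold and 0.0% of all genes. Its median was 0.34 for members and 0.02 for all genes, 58 of 76 were positive and 11 had an unadjusted p under 0.05 (4.23% of all genes), and without the 2 libraries that stand apart the median was 0.21 and 2 had such a p. The smallest p belonged to Mrpl51 (1.01 ± 0.34), Mrps25 (1.08 ± 0.37), Mrpl14 (1.24 ± 0.48) and Mrpl53 (0.84 ± 0.33), all with adjusted p of 0.998 (limma).

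Loss of Foxo itself gave no called member. Between Foxo KO and control ALDH- cells 0 of 76 passed (limma), where 0.00889% of all genes were higher and 0.00889% lower. The median was -0.06, with 41 negative and 35 positive values, and 3 had an unadjusted p under 0.05, beside 5.78% of all genes. The smallest p belonged to Mrps24 (0.73), Mrps12 (-0.71) and Mrpl32 (0.60), with adjusted p of 0.799 to 0.812 (limma). Between Foxo KO and control ALDH+ cells again 0 of 76 members passed, where 0.0% of genes did. Here the median was 0.20 and 55 were positive. At an unadjusted p under 0.05 there were 14 members, all positive, beside 6.6% of all genes in either direction (287 lower and 456 higher). Without the 2 libraries that stand apart the median stayed at 0.20 and 3 had such a p. These comparisons use the same libraries as those of ALDH+ with ALDH- cells.

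Mrps25, a mitochondria-specific small-subunit protein, had the smallest p in ALDH+ cells (1.17 ± 0.28, adjusted p 0.401 by limma). It was at 1.8 and 1.57 FPKM in control ALDH+ libraries and at 3.96 to 6.09 in Foxo KO ALDH+ libraries. The groups did not overlap, but the share of all genes apart in groups this small was not computed. In control ALDH- libraries it was at 3.72 to 3.87 FPKM and in Foxo KO ALDH- libraries at 3.03 to 5.32. Its locus overlaps that of Nr2c2 by 3536 bases. Mrpl51 (0.80), Mrpl27 (0.79) and Mrpl53 (0.76) followed.

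Libraries of the 2 cre drivers were compared next. Pdx-Cre libraries had 5 of 76 members higher than RIP-Cre libraries (6.58%) and 0 lower, against 5.68% and 4.05% of all genes tested. The share of higher members was close to that background. Without the 2 libraries that stand apart 2 were higher, Mrpl12 and Mrps12, and without Foxo KO ALDH- replicate 4 there were 8. The median was 0.17 for members and -0.01 for all genes. The 5 were Mrpl12 (1.17 ± 0.22), the stalk protein that binds translation factors, Mrps12 (1.02 ± 0.20), at the decoding site, Mrpl53 (0.70 ± 0.16), Mrpl3 (0.54 ± 0.13) and Mrpl30 (0.56 ± 0.16), with adjusted p from 0.00406 to 0.0339 (limma). No member was called lower, and Mrpl35 (-0.37) and Mrps30 (-0.60) had the smallest p on that side.

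Mrps12 separated by driver in Foxo KO cells and not in controls. In Foxo KO cells it was at 22.1, 25.5 and 47.1 FPKM in RIP-Cre ALDH- and 17.2, 27.2 and 29.5 in RIP-Cre ALDH+ libraries. The Pdx-Cre values were 66.9 and 65.3 in ALDH- and 70.5 and 73.2 in ALDH+ libraries, all above. In controls the RIP-Cre libraries were at 56.8, 60.5 and 53.3 FPKM and the Pdx-Cre libraries at 77.7 and 53.9, which overlap. Whether the driver effect differed between genotypes was not tested, and the share of all genes separated by driver in Foxo KO cells was not computed. Without the 2 libraries that stand apart the difference was 1.20 ± 0.21 (adjusted p 0.00553, limma).

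Mrpl12 was at 24.7 and 14.1 FPKM in RIP-Cre and 17.1 in Pdx-Cre control ALDH- cells, and at 4.84 and 25 in control ALDH+ cells. In Foxo KO cells RIP-Cre libraries were at 13.8, 9.29 and 11.1 FPKM in ALDH- and 9.46, 10.8 and 9.03 in ALDH+ cells. The Pdx-Cre libraries were at 29.4 and 35.3, and at 25.9 and 17.8, all above the RIP-Cre libraries of that genotype. The share of all genes separated in this way was not computed. The ALDH difference of Mrpl12 was -0.59 ± 0.23 (adjusted p 0.15, limma), and that of Mrps12 was -0.29 ± 0.21 (adjusted p 0.478, limma). Of the marker genes tested, 2 of 7 acinar, 2 of 4 delta and PP cell, 2 of 3 alpha cell, 1 of 3 duct and 2 of 2 immune genes were higher and 6 of 8 beta cell genes lower in Pdx-Cre libraries. The 4 immune markers summed to 21.5 to 160 FPKM in ALDH- and 21.2 to 73.9 in ALDH+ libraries, mostly Cd68, with Ptprc at 0.0214 or less. Their part in the result was not tested, and the driver cannot be told apart from the age or pool of those mice. The cre driver by ALDH interaction had 0 members called, 0.0% of all genes, and 6 members had an unadjusted p under 0.05, beside 4.54% of all genes (limma). Its median was 0.15, and -0.13 without the 2 libraries that stand apart, where 4 members had such a p.

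Mrpl46 and Mrps11 are neighbours on chromosome 7, pointing away from each other with 41 bases between them in mm9 coordinates (Mrpl46 at 85920226 to 85927975 and Mrps11 at 85928016 to 85937874). The pair was noticed after the values were seen. Mrps11, a small-subunit protein of bacterial descent, was at 20.3, 14.7 and 10.2 FPKM in control ALDH- and 12.3 and 14.5 in control ALDH+ cells. In Foxo KO cells it was at 10.8, 13, 28.3, 14.2 and 13.4 in ALDH- and 14.2, 10.8, 11.2, 13.2 and 8.73 in ALDH+ libraries, and the groups overlapped. Its ALDH difference was -0.23 ± 0.20 (adjusted p 0.566, limma), where that of Mrpl46 was -1.16 ± 0.24.

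Promoter windows from 250 bases before to 50 after the annotated start, taken from RefSeq on GRCm38.p6, were found for 67 members, and 9 had no entry. They were searched on both strands for 3 short motifs of factors known to act on mitochondrial genes: the ETS core CCGGAAG, the NRF1 core GCGCATGCG and the YY1 core AAGATGGC. The ETS core stood in 24 of 67 member windows (35.8%) and in 9.93% of 27025 genes with a window. The NRF1 core stood in 7 (10.4%, against 1.95%) and the YY1 core in 12 (17.9%, against 3.19%). Of the 13 lower members with a window, 7 held the ETS core, 1 the NRF1 core and 1 the YY1 core, and of the other 54 members 17, 6 and 11 did. Shown are the windows of Mrps21, the member with the smallest p, and of the neighbours Mrpl46 and Mrps11, which share 141 bases in opposite directions. They lie at chr3:95871465-95871764 on the minus strand, chr7:78783040-78783339 on the minus strand and chr7:78782881-78783180 on the plus strand. Each is written 5′ to 3′ along its gene, with motif matches in capitals.
Mrps21: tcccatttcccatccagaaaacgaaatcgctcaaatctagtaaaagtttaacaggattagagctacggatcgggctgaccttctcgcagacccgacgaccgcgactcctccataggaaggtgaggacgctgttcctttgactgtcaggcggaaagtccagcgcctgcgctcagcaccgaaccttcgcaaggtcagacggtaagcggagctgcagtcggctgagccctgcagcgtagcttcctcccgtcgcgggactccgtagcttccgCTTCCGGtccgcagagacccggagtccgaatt
Mrpl46: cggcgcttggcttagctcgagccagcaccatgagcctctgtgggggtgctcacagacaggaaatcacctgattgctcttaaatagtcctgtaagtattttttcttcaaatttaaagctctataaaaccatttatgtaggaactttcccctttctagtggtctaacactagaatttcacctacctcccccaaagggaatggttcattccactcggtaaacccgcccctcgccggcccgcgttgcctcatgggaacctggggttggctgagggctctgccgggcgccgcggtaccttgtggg
Mrps11: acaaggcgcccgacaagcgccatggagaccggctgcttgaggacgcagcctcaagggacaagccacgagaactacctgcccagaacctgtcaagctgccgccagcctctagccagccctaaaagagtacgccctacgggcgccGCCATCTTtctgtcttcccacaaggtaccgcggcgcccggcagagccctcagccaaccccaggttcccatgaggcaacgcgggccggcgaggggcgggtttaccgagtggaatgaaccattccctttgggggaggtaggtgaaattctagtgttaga
Mrps21 holds 1 ETS core, starting 18 bases after the start, and Mrps11 holds 1 YY1 core, starting at position -107. Both read as the reverse complements CTTCCGG and GCCATCTT along the gene. Mrpl46 holds none of the 3, and the match in Mrps11 lies outside the shared bases. A match shows letters only, and not that a factor binds.

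Other genes of mitochondrial translation were taken from lists. Of 7 ribosome proteins with other symbols none passed. At an unadjusted p under 0.05 there were 3, all lower, beside 20.8% of all genes in either direction. Gadd45gip1 (-0.73 ± 0.21) and Ict1 (-0.72 ± 0.21), a hydrolase built into the large subunit, had adjusted p of 0.0527 and 0.0537 (limma). Dap3 (0.35) and Ptcd3 (0.14), both in the small subunit, lay on the other side. The list's median was -0.41. Of 20 tested assembly factors 1 was higher and 0 lower, against 2.22% and 3.77% of all genes, with a median of -0.02. The gene that passed was Mettl17, a factor of small-subunit assembly (0.86 ± 0.24, adjusted p 0.0452 by limma), at 0.979 to 8.14 FPKM in ALDH- and 3.88 to 8.36 in ALDH+ libraries, which overlap. It did not pass in 21 of 28 alternatives.

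None of 12 translation factors, 17 mitochondrial tRNA synthetases and 7 tested genes of mitochondrial DNA transcription passed in the averaged comparison (limma). At an unadjusted p under 0.05 there were 0, 4 and 1, beside 20.8% of all genes. The elongation factors Tsfm (-0.52 ± 0.27) and Tufm (-0.47 ± 0.24) had the smallest p among factors. Among synthetases they were Hars2 (0.76 ± 0.26) and Yars2 (-0.57 ± 0.20), with adjusted p of 0.1 and 0.101 (limma). Polrmt, the mitochondrial RNA polymerase (0.54 ± 0.25), and Tfam, which packages mitochondrial DNA (-0.45 ± 0.26), led the last list. The 3 medians were -0.17, -0.15 and 0.09.

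Across the 15 libraries the members varied together to different degrees. Pearson's r between a member and the mean of the other 75 was above 0.5 for 39 members and below 0 for 8, with a median of 0.52. It was highest for Mrps21 (0.96), Mrpl23 (0.86) and Mrpl46 (0.84), and lowest for Mrps15 (-0.32) and Mrpl24 (-0.31). The 5 other genes whose levels followed the mean of the members most closely were Gm12191 (r = 0.979) and the cytosolic ribosomal protein genes Rpl35 (0.975), Rps14 (0.975), Rpl38 (0.972) and Rpl39 (0.967). The libraries share the sort, the ALDH groups and the length trend, so these values describe the libraries only.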

How the data were processed

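RNA of sorted RFP+ islet cells was sequenced in 15 libraries. The authors deposited 1 table per library with FPKM per gene in the column layout of Cufflinks. The submitters' processing notes name bcl2fastq 1.8.4, TopHat2 2.0.4 and mm9, and the quantifier's version and annotation are not given in the sources used here. The study tested counts, whereas the deposited values are FPKM, so limma 3.58.1 in R 4.3.3 was used. Of 23699 lines, 712 with repeated symbols and 63 with failed or too deep estimates were left out. Fragments were worked back from the deposited confidence intervals, and 67% of values under 500 lay within 0.02 of a whole number, too few for a count test.

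FPKM were rescaled by a trimmed mean of M-values (multipliers 0.956 to 1.09), and log2(FPKM + 1) was fitted with 4 groups and the cre driver for genes with a mean of at least 1. Differences are on that scale and understate changes of low genes. Tests were two-sided with Benjamini-Hochberg adjustment over all tested genes and a threshold of 0.05, in 8 comparisons, and the procedure was tested on simulated data. The simulated noise was independent, without a length trend, pairs or libraries that stand apart, so it cannot show how these affect the counts. Members and lists were chosen with earlier results of these data known. Named were the 8 members with the smallest p per direction that passed in the averaged comparison, or 3 where none did, 4 elsewhere, the 3 highest and 3 lowest levels per subunit, and a short list of members with special places or in the study's own list. Alternatives were other pseudocounts, filters, scalings, covariates, blocks, library weights, a length correction, single drivers, compared groups only, and leaving out libraries. Transcript lengths came from the longest transcript of a GRCm38 annotation and promoters from RefSeq. Motif searches, marker lists and lengths are descriptions with no test.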

Additional observations from a re-analysis of the deposited data

Results flagged for a closer look

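Within the Foxo KO groups of 5 libraries, 9 of 94 series of values had 1 library far from the others by Dixon's criterion, which chance meets in about 1 of 20 groups. In Foxo KO ALDH- cells, Mrpl13 was at 46.4 FPKM in replicate 1, with the nearest library at 69.7. Replicate 5 of that group was the highest for Mrpl36 (94.4 FPKM, nearest 75.6), Mrps28 (101, nearest 61.2) and Mrps35 (16.1, nearest 10.7). In Foxo KO ALDH+ cells, replicate 5 was the lowest for Mrpl27 (28.5 FPKM, nearest 41.8) and the highest for Mrps36 (35.7, nearest 23.9), and replicate 1 was the highest for Mrps17 (29.9, nearest 22.6). Replicate 3 of that group, which stands apart by its length trend, was the lowest for Mrps21 (90 FPKM, nearest 166). In it the median of the 76 members relative to their mean over 15 libraries was -0.40 on the log2 scale, with the nearest library at -0.05.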

How the results depend on the processing

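The count of lower members in the averaged comparison was 15. It was 8 with no filter on low values, 5 without the cre driver, 3 with the length trend removed, 2 in RIP-Cre libraries, 0 in Pdx-Cre libraries, 0 without the 2 libraries that stand apart, an alternative chosen after seeing the data, and 0 to 19 when 1 library was left out. The count in controls was 1. It was 2 with a minimum of 5 FPKM, 12 with the compared groups only, 13 with library weights, 0 with no filter, without the cre driver, with the length trend removed, in Pdx-Cre libraries and without those 2 libraries, and 0 to 4 with 1 library left out. Control ALDH+ cells had 1 library in the Pdx-Cre fit, as did control ALDH- cells, and 1 without those 2 libraries, so the spread there comes from the other groups and these counts of 0 say nothing about stability. The count for the cre driver was 5. It was 3 with the length trend removed (1 of them lower), 2 without those 2 libraries and 4 to 8 with 1 library left out. The other 5 comparisons had 0 under every alternative. The median of the members stayed between -0.47 and -0.25 in the averaged comparison, -0.67 and -0.28 in controls and -0.33 and -0.16 in Foxo KO cells. The cause of these changes was not tested. Shares of all genes called in the alternative fits are not given here. From the member counts alone, a change particular to the members cannot be told from a change over all genes.

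With a replicate block by number the averaged count was 0 and the control count 0, and with a replicate block within cre driver they were 3 and 0. Correlations of same-numbered libraries ran from -0.244 to 0.406 after removing group means, with 5 of 7 over 0.1, and from -0.0446 to 0.0704 after removing the driver too. The numbers were not taken as pairs, since not every pair passed 0.1. The pair at -0.244 was control replicate 2, which joins a RIP-Cre with a Pdx-Cre library. It cannot be a true pair, so this rule does not decide whether libraries were paired. The methods sort both fractions from dispersed islets, and a shared islet preparation was not tested.

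Some differences that had not passed changed sign. In the averaged comparison these were Mrpl1 (-0.06 in RIP-Cre libraries), Mrps12 (0.03 with the length trend removed), Ptcd3 (-0.35 in Pdx-Cre libraries, -0.14 without the 2 libraries, -0.06 to 0.33 with 1 left out) and Mrps30 (-0.0028 with pseudocount 10, -0.13 with the block by number, -0.39 in RIP-Cre libraries, -0.14 to 0.29 with 1 left out). In controls they were Mrps15 (-0.27 with the block by number, -0.0046 in RIP-Cre libraries), Mrps35 (-0.73 in Pdx-Cre libraries, -0.20 without the 2 libraries, -0.37 to 0.70 with 1 left out) and Mrpl24 (-0.17 and -0.0023 with the blocks, -0.04 to 0.37 with 1 left out). Between genotypes they were Mrps35 in ALDH- cells (-0.11 in Pdx-Cre libraries) and, in ALDH+ cells, Mrps12 (0.42 in Pdx-Cre libraries, 0.16 without the 2 libraries, -0.91 to 0.20 with 1 left out) and Mrpl39 (0.09 in RIP-Cre libraries, -0.77 to 0.22 with 1 left out).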
